A study of Danio rerio with 28 samples.

Results

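Chemokines are small secreted proteins that steer moving cells, and they act through receptors with 7 membrane passes that couple to G proteins. Atypical receptors bind chemokines without G protein signalling and remove or redistribute them. In an injured liver, chemokines are known for drawing in neutrophils, monocytes and lymphocytes, and macrophages, biliary epithelial cells (BECs) and stellate cells are among their known sources. The members described here are every gene row whose name begins with ccl, cxcl, ccr or cxcr and a digit, or with xcl or ackr. There were 72 such rows among 27652, namely 34 CC ligands, 14 CXC ligands, 12 CC receptors, 8 CXC receptors and 4 atypical receptors, and 0 rows of the xcl name. Each captured transcript carries a unique molecular identifier (UMI), and UMI counts were summed over the cells of a library and a cell type, and the level of a gene is its share of such a sum, scaled to CPM (counts per 1000000 UMIs). Drop-Seq tags the 3′ ends of transcripts, so levels carry no length correction.

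The study asked which cells rebuild the adult zebrafish liver after its hepatocytes are ablated. Fish carried Tg(Tp1:CreERT2), a tamoxifen-activated Cre under a Notch-responsive element that within the liver is active in BECs, Tg(-3.5ubb:LOXP-EGFP-LOXP-mCherry), which turns from GFP to mCherry after Cre, and Tg(fabp10a:CFP-NTR), a nitroreductase in hepatocytes that makes metronidazole toxic to them. Larvae received 4-hydroxytamoxifen, so BECs and their descendants are mCherry+ in the adult. Sorted mCherry+ cells were sequenced from uninjured fish, from mock-treated fish and from fish that were 0, 1, 2, 3 or 7 days past the ablation (days postablation, dpa). Each of the 7 groups had 3 libraries, and all groups were of this one genotype. GFP+ cells of uninjured fish gave 1 library. A further 6 libraries hold all live cells of uninjured adult males of the TU strain and are called the atlas. The labels do not say that libraries came from separate fish, so p-values measure the spread between these libraries, which may be technical. The libraries of uninjured mCherry+ cells carry another library set name than mock to 7 dpa, so set and treatment cannot be told apart and the 2 groups were not tested against each other.

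Libraries held 926798 to 7296066 UMIs over 5000 barcodes each, of which 661 to 1566 per library were called cells, 25842 in all, and 53 barcode sequences were called in more than 1 library. Depth per cell differed between groups, with library medians of 435 to 486 UMIs at mock and 596 to 600.0 at 0 dpa. Medians reached 1968.5 to 2185 UMIs at 1 dpa, 2239 to 2871 at 2 dpa and 3507 to 4038.5 at 3 dpa, and 7 dpa libraries had 1689 to 1980.0. Clusters were named from marker genes, with the members left out of clustering and naming, and the ending "-like" marks such names. The sorted cells were not BECs alone. At mock, 468 cells were BEC-like, 353 macrophage-like, 840 lymphocyte-like and 27 neutrophil-like, and at 1 dpa the numbers were 801, 1167, 57 and 211. BEC-like cells were 1167 at 2 dpa and 284 at 3 dpa, and hepatocyte-like cells were 1974 at 3 dpa and 2220 at 7 dpa. The BEC markers stood at 14746 to 15579 CPM in BEC-like cells at mock, with none of the 7 at 0, and at 10189 to 10396 CPM at 2 dpa. Barcodes below the cell threshold were summed in the same way, and their level is called background. For each comparison with calls, the number of calls whose higher group had a mean above the highest background library of that group is given, and so is the number that passed under every alternative processing that gave a value.

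Over the mCherry+ libraries the 72 members held 93955 UMIs, 40 members had at least 100 and 12 had under 10. The gene cxcr2, a receptor for Cxcl8-type ligands, had 1 UMI, while cxcr1, the other such receptor, had 508. The CC ligand ccl35.1 alone had 32428 UMIs, followed by its tandem neighbour by name ccl35.2 with 10618, cxcl20 with 7870, the Cxcl12 receptor gene cxcr4b with 6726 and ccl34a.4 with 5893. The ccl34, ccl35, ccl38 and ccl39 series are grouped here by name, and their sequences were not compared. Counts of single copies may include reads from another copy, which was not assessed.

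The leading ligand genes differed between cell types. In macrophage-like cells ccl35.1, ccl35.2 and ccl34a.4 made up 54.2%, 17.6% and 11.7% of ligand UMIs over the mCherry+ libraries. In BEC-like cells cxcl20 led with 33.4%, followed by ccl35.1 with 30.2% and ccl19a.1 with 13.1%. CCL19 is the ligand of CCR7 in mammals. In lymphocyte-like cells ccl38.6 led with 20.1%. In hepatocyte-like cells cxcl20 and ccl39.2 held 34.7% and 32.5%, and in stellate-like cells cxcl18b, a ligand that draws neutrophils in zebrafish, held 45.9%. In neutrophil-like and thrombocyte-like cells ccl35.1 had most ligand UMIs, 46.7% and 33.5%, at 214 and 230.4 CPM, below its background level. The level of ccl35.1 was 3528 CPM in macrophage-like cells, 347 in BEC-like cells and 326 in background barcodes. The level of cxcl20 was 384 CPM in BEC-like cells against 117 in background, that of ccl34a.4 was 759.6 CPM in macrophage-like cells, that of ccl38.6 was 505 CPM in lymphocyte-like cells and that of cxcl18b was 1279.8 CPM in stellate-like cells. These levels describe the cell types, and no test was made between types.

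**Figure D1:**
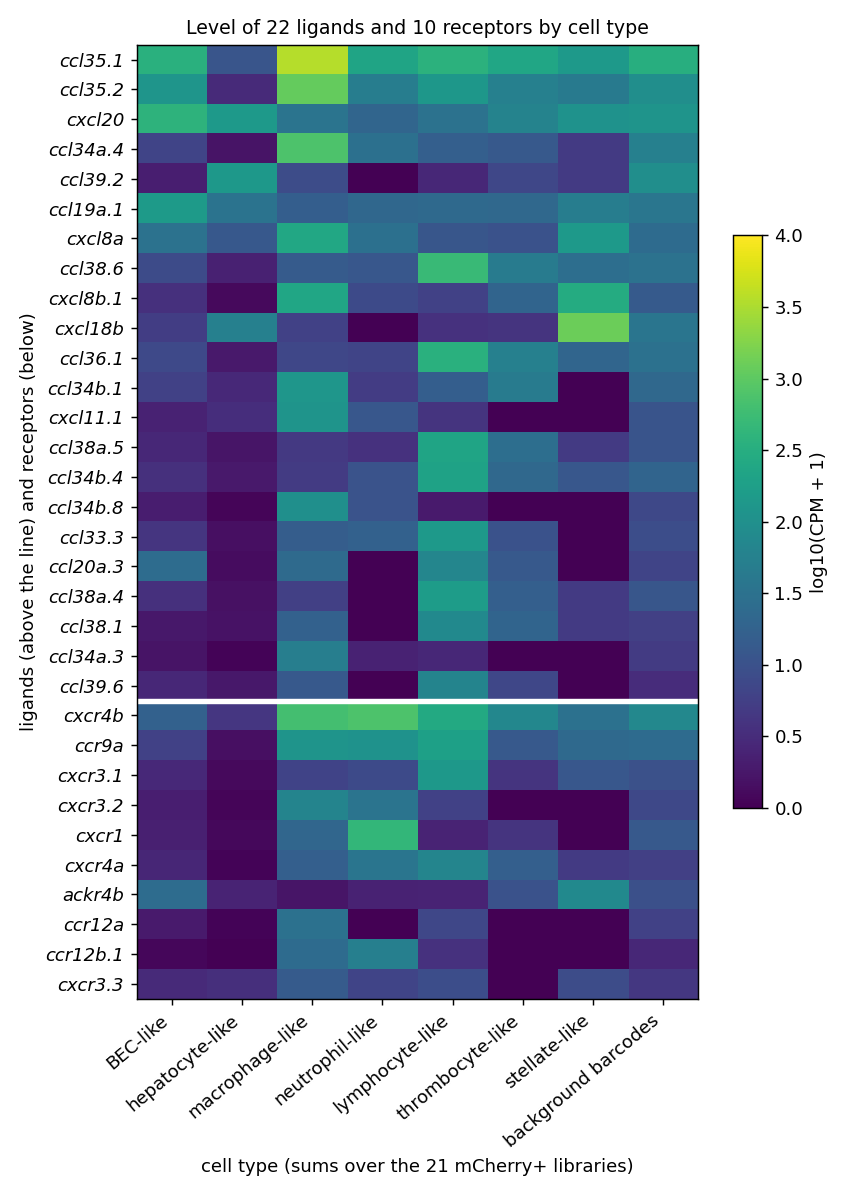
Pooled level of 22 ligands and 10 receptors over the mCherry+ libraries, as log10 of CPM plus 1 (colour), by named cell type and in background barcodes (columns). Brighter colours are higher levels, and the ccl35.1 row is brightest in macrophage-like cells at 3528 CPM, cxcl20 in BEC-like cells at 384, ccl38.6 in lymphocyte-like cells at 505 and cxcr1 in neutrophil-like cells at 450.4.

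Receptor UMIs lay mainly in leukocyte-like cells. The receptor genes summed to 1634 ± 112 CPM (SD, n = 3 libraries) in neutrophil-like cells at mock, 794 ± 11.5 in macrophage-like cells and 689 ± 106 in lymphocyte-like cells, against 89.6 ± 28.9 in BEC-like cells. In hepatocyte-like cells the sum was 147 ± 51.5 CPM at mock, on 140 cells in all. The mock libraries had medians of 295 to 375 UMIs per such cell. The sum was 9.9 ± 3.6 CPM at 3 dpa and 5.6 ± 2.4 at 7 dpa. Uninjured hepatocyte-like cells held 6.6 CPM in the GFP+ library, on 1109 cells, and 19.5 ± 13.4 CPM in the atlas (n = 6). In uninjured mCherry+ libraries the sum was 49.7 ± 47.4 CPM, on 55 cells in all. Stellate-like cells held 526 ± 147 CPM in uninjured mCherry+ libraries, on 45 cells in all, where lymphocyte-like cells held 694 ± 19.1. At 2 dpa stellate-like cells held 69.9 ± 18.7 CPM. In the atlas, also uninjured, stellate-like cells held 219 ± 97.5 CPM (n = 5) and lymphocyte-like cells 594 ± 232 CPM (n = 4). The leading receptor gene was cxcr4b in macrophage-like cells with 67.2% of receptor UMIs, in neutrophil-like cells with 52.1% and in lymphocyte-like cells with 37.4%. Beside it stood cxcr1 in neutrophil-like cells with 31.0%, and in lymphocyte-like cells ccr9a with 26.2% and cxcr3.1 with 19.3%. In mammals CCR9 is the receptor for CCL25 and CXCR3 that for the ligands CXCL9 to CXCL11. In BEC-like cells the atypical receptor gene ackr4b led with 38.8%, and ACKR4 removes CCL19, CCL21 and CCL25 in mammals. The level of ackr4b was 24.8 CPM in BEC-like cells and 79.3 CPM in stellate-like cells.

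The comparisons between time points used the raw UMI sums with edgeR's quasi-likelihood test and Benjamini-Hochberg adjustment over all genes of a fit, and a gene passed at an adjusted p below 0.05. Of the 72 members, 27 passed the filter on low counts in the fit of BEC-like and hepatocyte-like cells, 35 in macrophage-like, 25 in lymphocyte-like and 10 in neutrophil-like cells. Members outside the filter gave no test. Comparisons in a row share the libraries of the time point between them, and the comparisons of 0 and 2 dpa with mock share the mock libraries. Since a member could pass the filter through the group in which it is high, shares of tested members are set beside the share over all genes of the same fit. A fitted change rests on a prior count where a group holds few UMIs, so with 1 to 3 UMIs in the lower group the ratio of pooled levels is given with its 95% exact interval for counting error, and with 0 UMIs a bound at 3 UMIs over the group. Bounded medians set members with 0 UMIs in a group to that bound and leave out members with 3 or fewer UMIs in both groups.

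In BEC-like cells cxcl20 and ccl20b were lower and ccl35.2 higher at 0 dpa than at mock, and ccl35.1 was higher too, though not under every alternative. From mock to 0 dpa, 6 of the 27 tested members passed, 2 higher and 4 lower, against 9.38% of all genes tested in either direction, 4.29% higher and 5.09% lower. The median change of the tested members was -1.11 (bounded median -0.89) and that of all genes -0.17 on the log2 scale. The level of cxcl20 was 467, 613 and 686 CPM in mock replicates 1, 2 and 3 and 213, 111 and 178 CPM at 0 dpa. Every 0 dpa library lay below every mock library, and the fitted change was -1.83 ± 0.20 (log2 change ± SE, adjusted p = 4.48e-17, edgeR). For ccl20b, whose mammalian counterpart CCL20 is the ligand of CCR6, the mock libraries stood at 107, 45.0 and 95.9 CPM and the 0 dpa libraries at 16.3, 0 and 5.23 CPM, a change of -3.48 ± 0.72 (adjusted p = 6.12e-05, edgeR). The groups did not overlap. The other falls were those of ccl38.6 and ccl36.1, ligands that lead in lymphocyte-like cells, whose mock levels in BEC-like cells of 57.6 and 28.1 CPM lay below their highest background levels of 187 and 44.9 CPM. Of the 6 calls, 4 were above background, and 4 passed under every alternative, those of ccl20b, ccl35.2, ccl38.6 and cxcl20.

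The rises at 0 dpa in BEC-like cells were ccl35.1 and ccl35.2. The level of ccl35.1 was 828, 964 and 1099 CPM at mock and 1226, 1636 and 1448 CPM at 0 dpa, so the 3 libraries at 0 dpa were the higher ones (log2 change 0.53 ± 0.13, adjusted p = 0.00097, edgeR). The level of ccl35.2 went from 229, 270.2 and 273 CPM to 414, 541 and 559.5 CPM (0.93 ± 0.20, adjusted p = 0.000145, edgeR), again without overlap. In background barcodes ccl35.1 stood at 393 to 424 CPM at mock and 350.0 to 368 CPM at 0 dpa. The summed macrophage markers in BEC-like cells were 73.8 to 135 CPM at mock and 21.8 to 68.0 CPM at 0 dpa, with up to 3 of the 7 markers at 0 in a 0 dpa library. Without cells that held any macrophage marker UMI, an alternative chosen after seeing the data, the change of ccl35.1 was 0.54 (adjusted p = 0.00158, edgeR) and its level was 669, 1051.5 and 1156 CPM at mock and 1193, 1713 and 1524 CPM at 0 dpa. Macrophage-like cells themselves held less of most of these markers at 0 dpa, such as c1qb at 291.9 to 297.3 CPM against 972.3 to 1126.8 CPM at mock. The marker sum and the filter thus do not track macrophage RNA alike at both times. The part of macrophage RNA in the rise was not tested. The call of ccl35.1 was lost with free RNA subtracted (0.40, adjusted p = 0.173, edgeR) and without likely doublets (0.32, adjusted p = 0.112, edgeR), while that of ccl35.2 was kept in both.

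From 0 to 1 dpa the falls dominated, with 0 of 27 members higher and 9 lower, against 18.4% of all genes in either direction, 3.49% higher and 14.9% lower. With DESeq2 1 member was higher and 4 were lower. The median change was -2.09 for the tested members (bounded median -1.11) and -0.43 for all genes, and the median of all genes was 0.00 with trimmed mean of M values (TMM) factors over all genes and 0.25 with DESeq2. In these cells ccl35.1 dropped from 1226, 1636 and 1448 CPM to 215, 143 and 180.4 CPM, a change of -3.50 ± 0.13 (adjusted p = 4.59e-163, edgeR). At 1 dpa these values lay far under those of background barcodes, 1472 to 1595 CPM. The neighbour ccl35.2 changed by -4.03 ± 0.20. For ccl19b, the other named CCL19-type gene, 65.4, 26.1 and 62.8 CPM at 0 dpa stood against 8.65, 8.02 and 7.16 CPM at 1 dpa (-3.21 ± 0.52, adjusted p = 2.61e-08, edgeR), with no overlap.

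The Cxcl8 gene cxcl8a, whose product attracts neutrophils in zebrafish, was at 163, 52.2 and 131 CPM at 0 dpa and at 20.2, 25.7 and 20.0 CPM at 1 dpa in BEC-like cells. Its 0 dpa libraries were all higher, and the change was -2.94 ± 0.58 (adjusted p = 0.000452, edgeR). The level of ccl19a.1 went from 529, 299.9 and 497 CPM to 241, 250.2 and 391 CPM (-1.11 ± 0.15, adjusted p = 1.84e-11, edgeR), and here replicate 3 of 1 dpa lay above replicate 2 of 0 dpa. With DESeq2 neither passed, with -2.10 (adjusted p = 0.0521) for cxcl8a and -0.28 (adjusted p = 0.484) for ccl19a.1. The call of ccl20a.3 rested on replicate 3 of 0 dpa, which held 62.8 CPM while the other libraries of both groups held 0 to 2.86 CPM, and without that library the change was 3.23. At 0 dpa 3 of 560 BEC-like cells held ccl20a.3 UMIs. The remaining falls, of ccl34b.1, ccl38.6 and ccl38a.4, were from levels of 9.72, 6.16 and 6.16 CPM at 0 dpa, each under its highest background level. Of the 9 calls, 6 were above background, and 3 passed under every alternative, those of ccl19b, ccl35.1 and ccl35.2.

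From 1 to 2 dpa, 4 members rose and 9 fell of 27, against 22.4% of all genes, 11.2% in each direction. Medians were -0.94 for members (bounded median -0.80) and 0.00 for all genes. The level of cxcl20 rose from 190.3, 191 and 195 CPM to 335, 400.4 and 389.7 CPM (0.94 ± 0.12, adjusted p = 4.43e-14, edgeR), and the groups did not overlap. Background for cxcl20 was 182 to 239 CPM at 2 dpa. The other rises, of ccl19b, ccl36.1 and ccl39.4, were to means of 17.9, 6.07 and 4.54 CPM, against background of 5.34 to 12.3, 114 to 135 and 3.2 to 8.6 CPM, and each lost its call under at least 6 alternatives. The level of ccl19a.1 dropped to 71.0, 64.5 and 56.2 CPM (-2.23 ± 0.13, adjusted p = 2.15e-59, edgeR), below every 1 dpa library. A further drop took ccl35.1 to 26.5, 18.8 and 23.5 CPM (-2.98 ± 0.17, adjusted p = 5.47e-69, edgeR), below the 136 to 138 CPM of background barcodes. The scavenger gene ackr4b went from 53.4, 43.3 and 27.2 CPM to 13.2, 17.6 and 19 CPM (-1.32 ± 0.29, adjusted p = 8.3e-05, edgeR), again with no overlap. Of the 13 calls, 5 were above background, and those of ccl35.1 and cxcl20 passed under every alternative. At clustering resolution 1, where most BEC-like cells of 2 dpa lost their name, ccl19a.1 had -0.29 (adjusted p = 0.689, edgeR) and ackr4b -0.28 (adjusted p = 0.926, edgeR), and with cells of at least 500 UMIs ackr4b had -1.11 (adjusted p = 0.0687, edgeR).

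Set against mock directly, BEC-like cells at 2 dpa had 0 members higher and 18 lower of 27, while 34.4% of all genes passed, 8.53% higher and 25.9% lower. The median was -3.04 for members (bounded median -3.46) and -0.70 for all genes. With DESeq2 the median of all genes was 0.40 and 14 members were lower and 0 higher. Of the falls with more than 3 UMIs in both groups, the largest by fit were ccl20a.3 with -6.13 ± 0.88, ccl20b with -6.04 ± 0.59, ccl35.1 with -5.95 ± 0.17 and ccl35.2 with -5.77 ± 0.31 on the log2 scale. For ccl38a.5, with 7 UMIs at mock and 1 at 2 dpa, the level at mock was 111 times that at 2 dpa (95% interval 14.3 to 5010.0), but the mock level of 18.3 CPM lay under background at 50.9 to 61.3 CPM. The level of ccl20a.3 was 73.8, 54.0 and 88.5 CPM at mock and 3.18, 0.59 and 0.44 CPM at 2 dpa (adjusted p = 4.04e-07, edgeR), with no overlap, and at clustering resolution 1 the adjusted p was 0.0818 (edgeR). Its UMIs at mock lay in 15 of 468 BEC-like cells. The change of cxcl20 was -1.23 ± 0.15 from 589 ± 111 to 375 ± 35.2 CPM, and under DESeq2 it was 0.02. Of the 18 calls, 9 were above background, and 9 passed under every alternative, those of ccl19a.1, ccl20b, ccl34a.4, ccl35.1, ccl35.2, ccl38.6, ccl38a.5, cxcl18b and cxcl8a. Like ccl38a.5, ccl34a.4 and ccl38.6 were not above background. Their mock levels were 23.8 and 57.6 CPM, against background of 52.4 to 66.4 and 147 to 187 CPM. The mock BEC-like cells held 143 cells of a cluster with 408.5 CPM of cxcl8a, 216 CPM of ccl20b and 647.5 CPM of ccl19a.1. That cluster held 109 of 560 BEC-like cells at 0 dpa, 6 of 801 at 1 dpa and 11 of 1167 at 2 dpa. Another cluster held 31 of 468 at mock and 993 of 1167 at 2 dpa. The BEC-like cells thus changed in make-up, and the part of that in the falls was not tested.

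In BEC-like cells of uninjured fish cxcl20 stood at 543, 542 and 688 CPM, ccl35.1 at 1671, 996 and 1448 CPM and ccl19a.1 at 195, 259.7 and 138 CPM. For cxcl20 these values overlapped those of mock. For ccl35.1, 2 of the 3 libraries lay above every mock library and were within or above the range of 0 dpa, and for ccl19a.1 all 3 lay below every mock library. The level of cxcl8a was 14.7, 67.2 and 2.09 CPM in uninjured and 221, 198 and 73.8 CPM in mock libraries, without overlap and not tested. Of 952 uninjured BEC-like cells 699 lay in a cluster that held 57 of 468 at mock.

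Genes that act downstream of the receptors were counted in the comparison of 2 dpa with mock as well. Of 23 tested genes of a list of receptor signalling and cell migration, 0 were higher and 14 lower, beside 8.53% higher and 25.9% lower over all genes, with a median of -1.77 against -0.70 for all genes, led by rgs13, a regulator of G protein signalling, with -4.48, elmo1, which acts in Rac activation, with -4.15, and wasb, an actin regulator of blood cells, with -3.79. The genes elmo1 and wasb are also active in leukocytes. Both rgs13 and wasb were leading genes of an unnamed cluster, which shared others, such as dusp2 and tnfrsf9b, with the atlas lymphocyte-like cluster. Macrophage markers in these sums were 73.8 to 135 CPM at mock and 39.3 to 54.6 CPM at 2 dpa, and without cells holding such a UMI 15 members were lower and 0 higher. Lymphocyte-like cells were 31.24% of called cells at mock and 8.43% at 2 dpa, and the part of lymphocyte RNA in these falls was not tested. Of 13 tested inducers and regulators of inflammation, 0 were higher and 10 lower, beside the same shares over all genes, with a median of -2.32 against -0.70, led by tnfb with -5.76, il11b with -4.02 and the NF-kB inhibitor gene nfkbiaa with -3.95. The lists were compared by their counts and medians alone.

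**Figure D2:**
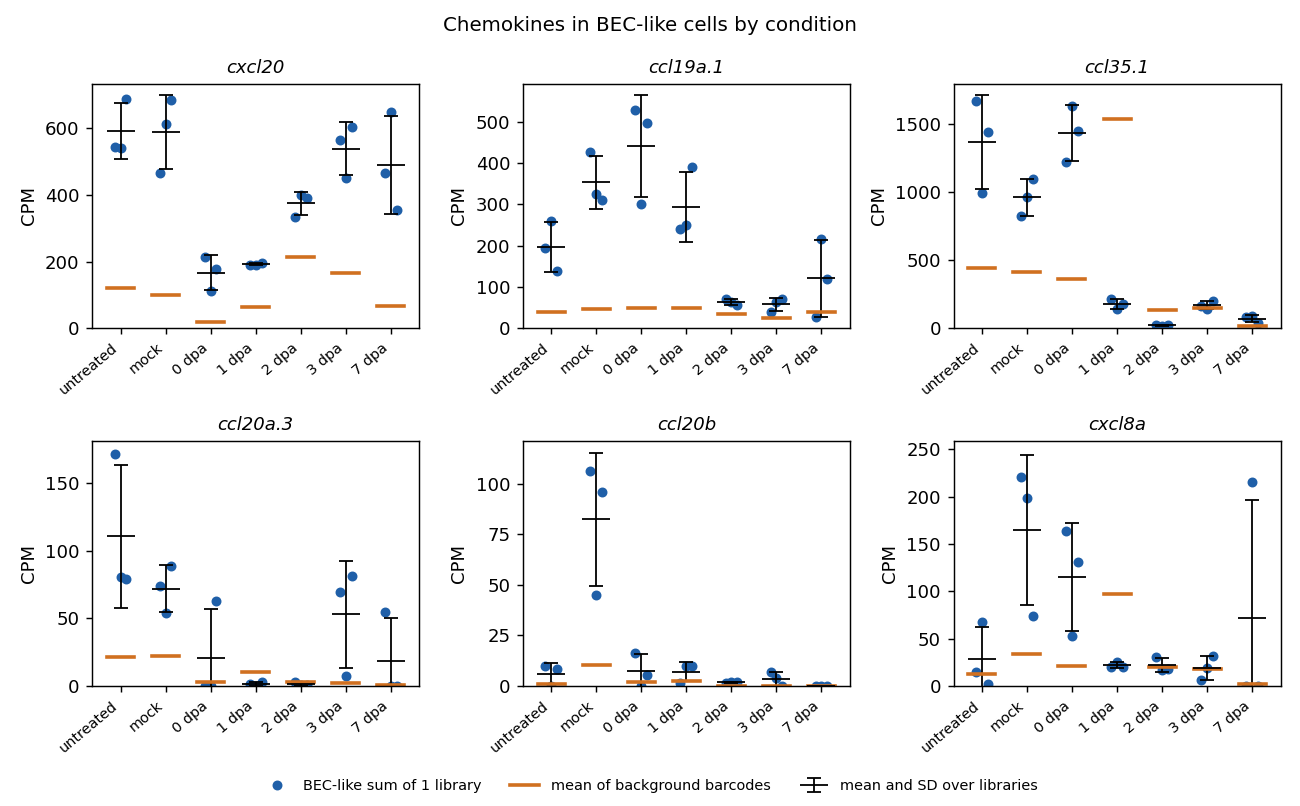
Level in CPM (y axis) of 6 ligands in BEC-like cells of uninjured (untreated), mock and 0 to 7 dpa libraries (x axis). Blue dots are single libraries, black marks the mean with SD, and the orange line is the mean of background barcodes. The ccl35.1 panel falls from 1437 ± 205 CPM at 0 dpa to 22.9 ± 3.9 CPM at 2 dpa, and the cxcl20 panel is lowest at 0 dpa with 167 ± 51.7 CPM.

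BEC-like cells at 3 dpa had 5 members higher and 0 lower than at 2 dpa, against 14.2% of all genes, 8.41% higher and 5.78% lower. With library size alone or DESeq2, 5 were higher and 1 was lower. The medians were 0.11 for members (bounded median 0.84) and -0.10 for all genes, or -0.40 and -0.46 for all genes with library size and DESeq2. The level of cxcl20 was 565, 449 and 603 CPM (0.84 ± 0.11, adjusted p = 1.29e-11, edgeR), above every 2 dpa library. The level of ccl20a.3 was 69.8, 7.43 and 81.6 CPM against 0.44 to 3.18 CPM at 2 dpa (5.47 ± 0.70, adjusted p = 9.93e-08, edgeR), with replicate 2 far below the others. Its UMIs at 3 dpa lay in 7 of 284 BEC-like cells, with up to 21 in 1 cell. For ccl35.1 the level was 163, 145 and 200.1 CPM (3.19 ± 0.20, adjusted p = 4.02e-52, edgeR), while background stood at 133 to 166 CPM. The other rises were ccl35.2 and cxcl18b, whose 3 dpa means of 26.0 and 7.33 CPM lay under their highest background levels of 31.0 and 37.8 CPM. Of the 5 calls, 3 were above background and that of ccl35.1 alone passed under every alternative. At clustering resolution 1 cxcl20 had 0.36 (adjusted p = 0.565, edgeR) and ccl20a.3 had 8.18 (adjusted p = 0.428, edgeR), and with cells of at least 500 UMIs cxcl20 had 0.31 (adjusted p = 0.341, edgeR). Inhibitors of NF-kB signalling were higher in the same cells, nfkbiaa by 1.72, nfkbiab by 1.03 and tnfaip3 by 1.88 on the log2 scale. These were the 3 of 13 tested inflammatory genes that passed, and 0 of 23 migration genes passed, beside the 14.2% of all genes. The BEC-like cells at 3 dpa also held hepatocyte markers at 28649 to 34440 CPM, against 2339 to 2885 CPM at 2 dpa, and the part of that in the result was not tested.

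Hepatocyte-like cells at 3 dpa, which the lineage label places among descendants of BECs, had 2 members higher and 13 lower than BEC-like cells at 2 dpa, against 53.4% of all genes, 14.5% higher and 39% lower. The members' median was -0.93 (bounded median -0.98) and that of all genes -0.52, or -0.18, -0.79 and -0.10 with TMM over all genes, library size and DESeq2. The level of ccl39.2 was 0, 0 and 0.44 CPM in BEC-like cells at 2 dpa and 57.3, 61.5 and 58.7 CPM in hepatocyte-like cells at 3 dpa. The groups did not overlap (adjusted p = 1.95e-92, edgeR), and with 1 UMI at 2 dpa the ratio of pooled levels was 345 (95% interval 61.8 to 13700.0). Its background at 3 dpa was 39.1 to 41.9 CPM. The level of cxcl18b went from 2.65, 2.35 and 0 CPM to 44.4, 37.1 and 38.3 CPM (4.82 ± 0.31, adjusted p = 2.84e-54, edgeR), again without overlap, and its background was 22.1 to 37.8 CPM. Among the falls, ccl19b went from 17.9 ± 2.9 to 0.31 ± 0.11 CPM (-5.0 ± 0.47), ackr4b from 16.6 ± 3.0 to 1.87 ± 0.60 CPM (-2.79 ± 0.35) and cxcl20 from 375 ± 35.2 to 179.7 ± 16.6 CPM (-0.78 ± 0.09, adjusted p = 2.14e-15, edgeR). The 2 dpa level of ackr4b lay under its background of 20.9 to 21.4 CPM. Of the 15 calls, 6 were above background, and 6 passed under every alternative, those of ackr4b, ccl19b, ccl20b, ccl39.2, cxcl18b and cxcl20.

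Between 3 and 7 dpa the hepatocyte-like cells had 4 members higher and 7 lower, against 54.9% of all genes, 7.21% higher and 47.7% lower. The medians were -0.47 for members (bounded median -0.06) and -0.87 for all genes. This split depended on scaling, with 5 higher and 1 lower under TMM over all genes, where the median of all genes was 0.40, and 3 higher and 4 lower under DESeq2. The level of ccl39.2 rose to 307, 305 and 258 CPM, above every 3 dpa library (2.33 ± 0.11, adjusted p = 3.87e-99, edgeR), with background at 262 to 290.3 CPM. In atlas hepatocyte-like cells ccl39.2 was the leading member at 771 ± 635 CPM (n = 6), with libraries from 268 to 1918 CPM. The uninjured GFP+ library held 1049 ccl39.2 UMIs among the 4046220 UMIs of its called cells, of which 1109 of 1161 were hepatocyte-like. Its neighbour by name ccl39.5 was at 0.21, 0.26 and 0 CPM at 3 dpa and at 12.2, 5.5 and 8.45 CPM at 7 dpa (adjusted p = 2.49e-14, edgeR), with all 7 dpa libraries above all 3 dpa libraries, and on 2 UMIs at 3 dpa the ratio was 57.3 (95% interval 15.2 to 484). The level of cxcl8a fell from 20.2, 17.5 and 14.8 CPM to 0.44, 0.5 and 0 CPM (adjusted p = 5.16e-06, edgeR), a ratio of 57.5 on 2 UMIs at 7 dpa (95% interval 15.7 to 478). The groups did not overlap, and background at 3 dpa was 15.7 to 20.9 CPM. The level of cxcl20 went from 179.7 ± 16.6 to 75.5 ± 7.0 CPM (-1.22 ± 0.11), a direction that turned under TMM over all genes to 0.14. The rises of cxcl18b by 1.09 ± 0.14 and of ccl19a.1 by 0.74 ± 0.15 had 7 dpa means of 83.7 and 43.6 CPM, the latter within its background of 34.1 to 48.7 CPM. Of the 11 calls, 4 were above background, and 4 passed under every alternative, those of ccl19a.1, ccl39.2, cxcl18b and cxcl8a. With DESeq2 ccl39.5 did not pass (adjusted p = 0.511).

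In macrophage-like cells the ligand genes summed to 8385 ± 569 CPM at mock, 5449 ± 636 CPM at 0 dpa and 6974 ± 170 CPM at 1 dpa (n = 3 each). At 2 dpa they held 3832 ± 606 CPM and at 3 dpa 6918 ± 433 CPM. From mock to 0 dpa, 18 of 35 tested members passed, 6 higher and 12 lower, against 15.7% of all genes, 5.28% higher and 10.4% lower. The medians were -1.01 for members (bounded median -1.16) and -0.16 for all genes, and 6 were higher and 7 lower under TMM over all genes, where the median of all genes was 0.13. The cells behind these sums changed in make-up. At mock, 328 of 353 cells lay in a cluster led by cd74a and MHC class II genes, and at 0 dpa 284 of 451 and at 1 dpa 874 of 1167 lay in a cluster led by grn1, grn2, spink2.2 and mfap4. A further macrophage-like cluster, led by fabp11a, held 7 of 451 cells at 0 dpa and 220 of 1167 at 1 dpa. A neutrophil marker list summed to 1977 to 2278 CPM in macrophage-like cells at 0 dpa against 22.4 to 83.0 CPM at mock. Most of it was mmp13a, a collagenase gene, with 1847 to 2120 CPM at 0 dpa. Of the other genes of that list, mpx stood at 0 to 3.1 CPM at 0 dpa. The level of lyz was 12.8 to 75.1 CPM at 0 dpa and 0 to 8.3 CPM at mock. The gene lect2l was higher in every 0 dpa library, with up to 110.1 CPM against up to 20.9 CPM at mock. For npsn, with up to 21.9 CPM at 0 dpa and up to 7.5 CPM at mock, the libraries overlapped. Neutrophil-like cells held 12449 to 23730 CPM of that list at 0 dpa.

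Of the members that rose, cxcl8b.1, a second Cxcl8-type ligand gene, reached the highest level. It was at 22.4, 41.5 and 34.8 CPM at mock and 459, 699 and 776 CPM at 0 dpa, with no overlap (3.99 ± 0.31, adjusted p = 8.2e-37, edgeR). The level of ccl34b.8 was 0, 8.3 and 0 CPM at mock and 107, 174 and 166 CPM at 0 dpa (adjusted p = 8.91e-13, edgeR), and the groups were apart. On 1 UMI at mock, its ratio was 60.9 (95% interval 10.8 to 2420.0). The other rises were ccl34b.9, with 0 UMIs in the 3 mock libraries and 22.5 ± 8.0 CPM at 0 dpa (at least 3.11-fold higher), ccl34a.3 with 2.49 ± 0.64, ccr12b.1 with 2.25 ± 0.68 and ccr9a. The receptor gene ccr9a was at 22.4, 49.8 and 13.9 CPM at mock and at 133, 94.7 and 109.5 CPM at 0 dpa (1.69 ± 0.43, adjusted p = 0.00134, edgeR), again with no overlap. Background for ccr9a at 0 dpa was 49.2 to 67.2 CPM.

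Among the falls, ccl34b.1, whose expression is known to mark a subset of zebrafish microglia, was at 434, 556 and 410.4 CPM at mock and 66.6, 43.5 and 116 CPM at 0 dpa (-2.95 ± 0.23, adjusted p = 3.01e-35, edgeR). All mock libraries were higher. For ccl35.1 the level went from 4226, 4922 and 5008 CPM to 1899, 2706 and 2209 CPM (-1.36 ± 0.09, adjusted p = 8.06e-45, edgeR), again without overlap. The Cxcl8 gene cxcl8a went from 337, 473 and 209 CPM to 81.5, 131 and 53.2 CPM (-2.19 ± 0.34, adjusted p = 4.49e-06, edgeR). In the sums over all macrophage-like cells cxcl8b.1 and cxcl8a moved in opposite directions, with no overlap in either. Within the cd74a cluster neither of them passed. The receptor gene cxcr3.2 fell by 1.36 on the log2 scale, and cxcr3.3, with 7 UMIs at mock and 3 at 0 dpa, was 5.75 times higher at mock (95% interval 1.31 to 34.4). These were weak calls, since cxcr3.2 lost its call in 8 of 18 alternatives, among them TMM over all genes, library size and DESeq2, and cxcr3.3 in 14 of 18, every fit without 1 library included. In zebrafish Cxcr3.2 draws macrophages to Cxcl11-type ligands while Cxcr3.3 lacks such signalling. The change of ccl34a.4 was -0.37 ± 0.13 with overlapping libraries, and 0.02 under DESeq2.

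These calls depended on which macrophage-like cells were summed. In alternatives chosen after seeing the data, 9 members passed without cells holding a neutrophil marker UMI, 4 higher and 5 lower. That took the 0 dpa libraries from 132, 171 and 148 cells to 77, 91 and 68. The mock libraries went from 118, 104 and 131 cells to 115, 99 and 125. The part of the smaller 0 dpa sums in the lost calls was not tested. Within the cd74a cluster alone 2 members passed. Of the 18 calls, 15 were above background, and those of ccl34b.1 and ccl34b.8 passed under every alternative that gave a value. The call of ccr9a was lost without cells holding a neutrophil marker UMI (1.51, adjusted p = 0.073, edgeR). Within that cluster ccl34b.1 changed by -1.28 (adjusted p = 0.00036, edgeR) and ccl34a.3 by 3.03 (adjusted p = 0.00908, edgeR), while cxcl8b.1 had 1.19 (adjusted p = 0.584), ccl35.1 had -0.22 (adjusted p = 0.584) and cxcl8a had -0.71 (adjusted p = 0.334). Pooled over libraries, cxcl8b.1 stood at 824 CPM in the grn1 cluster at 0 dpa, 274 CPM at 1 dpa and 83.3 CPM at 2 dpa. The level of ccl34b.1 in the cd74a cluster was 521 CPM in mock, 208 in 0 dpa, 95.6 in 1 dpa, 223 in 2 dpa and 1152 in 3 dpa libraries, against 32.4, 27.4 and 87.9 CPM in the grn1 cluster at 0, 1 and 2 dpa. For ccl35.1 the cd74a cluster held 5007, 4229.8, 4505 and 2560.4 CPM from mock to 2 dpa and the grn1 cluster 2662, 1821, 3934 and 1575 CPM.

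**Figure D3:**
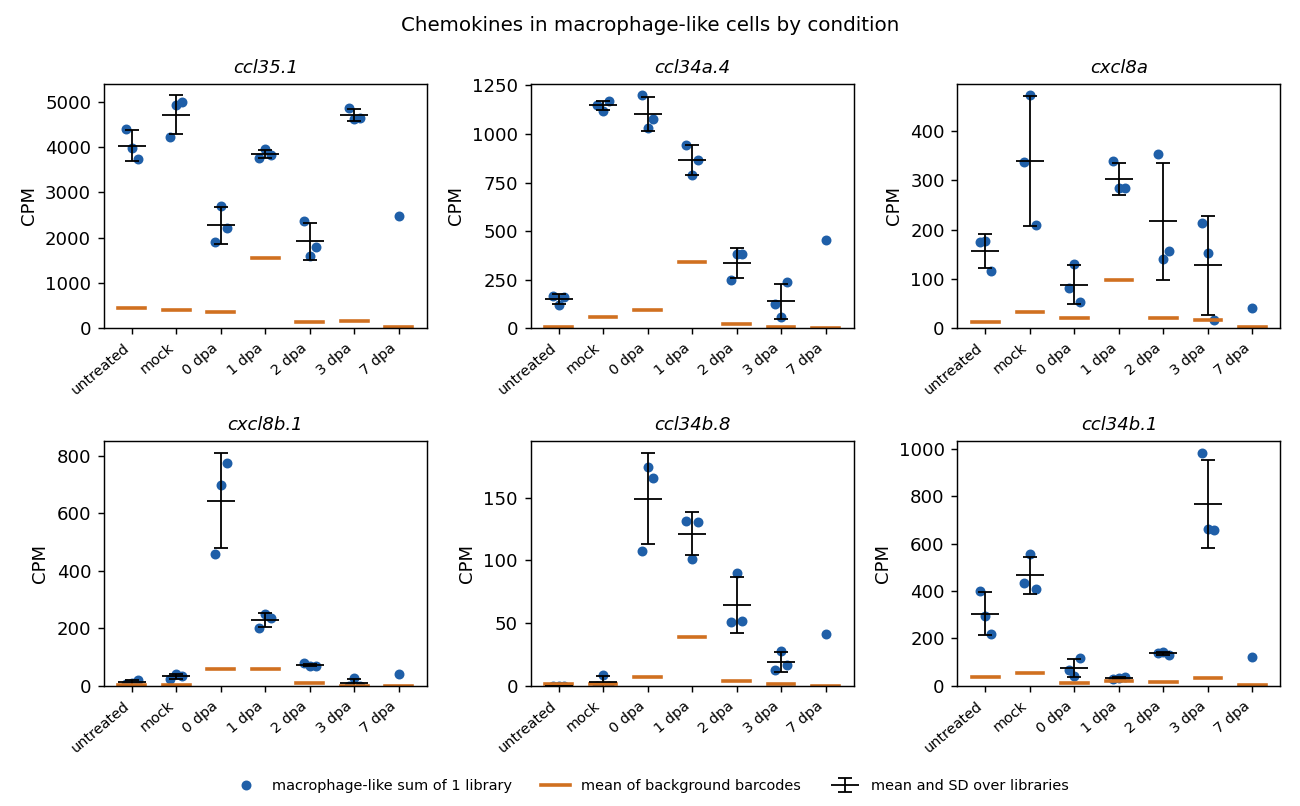
Level in CPM (y axis) of 6 ligands in macrophage-like cells of uninjured (untreated), mock and 0 to 7 dpa libraries (x axis), with single libraries as blue dots, mean and SD in black and mean background as the orange line. The cxcl8b.1 panel peaks at 0 dpa with 645 ± 165 CPM, where ccl34b.1 stands at 75.3 ± 36.9 CPM after 467 ± 78.2 CPM at mock.

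From 0 to 1 dpa, 18 of 35 tested members passed in macrophage-like cells, 7 higher and 11 lower, against 25% of all genes, 12.2% higher and 12.8% lower. The medians were -0.13 for members and 0.01 for all genes, and with DESeq2 3 were higher and 8 lower, at a median of 0.14 for all genes. The level of cxcl8b.1 fell to 200.1, 249 and 237 CPM (-1.65 ± 0.16, adjusted p = 1.1e-22, edgeR), below every 0 dpa library. The level of cxcl8a rose to 339, 284 and 285 CPM (1.59 ± 0.29, adjusted p = 5.01e-05, edgeR), above every 0 dpa library, so the order of the pair turned. Without cells holding a neutrophil marker UMI the rise of cxcl8a was 0.73 (adjusted p = 0.081, edgeR), and within the cd74a cluster it was 0.53 (adjusted p = 0.474, edgeR). Leaving those cells out took the 1 dpa libraries from 389, 345 and 433 cells to 202, 178 and 237, and the cd74a cluster held 26, 16 and 31. The part of these smaller sums in the lost calls was not tested. That of ccl34b.1 fell again to 29.97, 34.1 and 35.8 CPM (-1.29 ± 0.25, adjusted p = 6.39e-06, edgeR), a call lost without replicate 3 of 0 dpa (-0.81, adjusted p = 0.0538, edgeR) and within the grn1 cluster (-0.40, adjusted p = 0.495, edgeR). Libraries of 1 dpa held ccl35.1 at 3766, 3957 and 3823 CPM, a rise of 0.61 ± 0.09 (adjusted p = 8.52e-10, edgeR), which became -0.06 without cells holding a neutrophil marker UMI, -0.32 within the cd74a cluster and 1.00 within the grn1 cluster. Without the neutrophil marker cells 9 members passed, 0 higher and 9 lower, and within the grn1 cluster 10 passed, 6 higher and 4 lower. Of the 18 calls, 12 were above background, and that of ccl34a.4 alone passed under every alternative. Of the inflammatory genes, 5 of 17 were higher and 1 lower, with il1b at 1.44, tnfb at 1.09 and tnfaip3 at -1.04. From mock to 0 dpa 0 were higher and 4 lower, when nfkbiab had -2.05, tnfb -1.67 and il1b -1.40.

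From 1 to 2 dpa, 6 members rose and 8 fell in macrophage-like cells, against 13.3% of all genes, 7.28% higher and 5.98% lower. The medians were -0.10 for members (bounded median -0.24) and 0.08 for all genes. The levels of cxcl8b.1 fell to 77.8, 68.5 and 70.6 CPM (-1.62 ± 0.23, adjusted p = 5.39e-11, edgeR) and those of ccl34a.4 from 946, 789 and 864 CPM to 249, 381 and 383 CPM (-1.32 ± 0.14, adjusted p = 1.76e-19, edgeR), with no overlap in either. The cells again differed in make-up, since the cd74a cluster held 73 macrophage-like cells at 1 dpa and 128 at 2 dpa and the grn1 cluster 874 and 131. Within the cd74a cluster cxcl8b.1 changed by 5.59 (adjusted p = 0.0164, edgeR) and 8 members passed, and without cells holding a neutrophil marker UMI cxcl8b.1 changed by -0.53 (adjusted p = 0.361, edgeR). The 1 dpa libraries held 26, 16 and 31 cells of the cd74a cluster. The cxcl8b.1 UMIs of these cells are not given here, so the size of 5.59 may rest on the prior count. The level of ccl34b.1 rose to 139.97, 141 and 130.01 CPM (2.07 ± 0.23, adjusted p = 1.79e-16, edgeR). At 3 dpa it was 768 ± 187 CPM. The other rises were ccl33.3, from 0, 4.15 and 0 CPM to 132, 47.1 and 70.6 CPM (5.79 ± 0.51, adjusted p = 8.65e-27, edgeR), ccl39.6 with 3.51 ± 0.57, ccl39.7 with 3.87 ± 0.59, the receptor gene cxcr3.1 with a ratio of 82.4 on 1 UMI at 1 dpa (95% interval 12.7 to 3470.0) and the Cxcl12 scavenger gene ackr3b with 1.88 ± 0.65. The level of cxcr3.1, 19.6 ± 5.6 CPM at 2 dpa, lay under its highest background level of 25.8 CPM. Of the 14 calls, 13 were above background, and 6 passed under every alternative, those of ccl33.3, ccl34a.3, ccl34a.4, ccl34b.1, ccl35.1 and ccl39.7. The call of ackr3b was lost in 6 alternatives, DESeq2 among them (adjusted p = 0.0826). Of 17 tested inflammatory genes 2 were higher and 4 lower, beside 7.28% higher and 5.98% lower over all genes. The csf3b gene, which encodes a granulocyte growth factor, changed by -2.86, il1b by -1.53 and irf1b by 1.29.

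The receptor gene cxcr4b passed in none of the 3 macrophage-like comparisons. Its mean was 860 ± 193 CPM in uninjured, 605 ± 50.2 in mock, 590.4 ± 63.0 in 0 dpa, 598 ± 59.2 in 1 dpa, 696 ± 82.4 in 2 dpa and 596 ± 121 in 3 dpa libraries, and the ranges of neighbouring time points overlapped apart from uninjured and mock. Uninjured and mock libraries stood apart more clearly for ccl34a.4, at 168, 119 and 161 CPM against 1152, 1120.5 and 1169 CPM. This pair of groups was not tested.

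Lymphocyte-like cells showed a fall of the ccl38 series at 0 dpa. Of 25 tested members, 0 rose and 5 fell from mock to 0 dpa, against 2.16% of all genes in either direction, 0.985% higher and 1.18% lower, while the medians were -0.08 for members (bounded median -0.10) and 0.00 for all genes. The level of ccl38.6 was 1389, 1533 and 1267 CPM at mock and 263, 359.7 and 168 CPM at 0 dpa (-2.30 ± 0.19, adjusted p = 9.72e-30, edgeR). That of ccl38.1 was 320.1, 331 and 247 CPM against 18.4, 29.98 and 13.4 CPM (-3.74 ± 0.44, adjusted p = 3.63e-14, edgeR), and that of ccl38a.5 was 538, 566 and 371 CPM against 85.8, 157 and 87.2 CPM (-2.06 ± 0.28, adjusted p = 8.36e-11, edgeR). In each of the 3 genes every mock library lay above every 0 dpa library. The level of ccl38a.4 was 341, 545 and 297 CPM at mock and 184, 157 and 13.4 CPM at 0 dpa (-1.61 ± 0.31, adjusted p = 9.55e-05, edgeR), with replicate 3 of 0 dpa far below the other 2. The fifth, ccl36.1, changed by -0.82 ± 0.23 (adjusted p = 0.024, edgeR), and without cells holding a macrophage marker UMI the adjusted p was 0.113. The call of ccl38a.4 was lost with DESeq2 (adjusted p = 0.103) and with cells of at least 500 UMIs (adjusted p = 0.0557, edgeR), and that of ccl36.1 in 9 alternatives. All 5 calls were above background, and those of ccl38.1, ccl38.6 and ccl38a.5 passed under every alternative. Macrophage markers in these sums were 184 to 242 CPM at mock and 36.8 to 74.9 CPM at 0 dpa, when macrophage-like cells themselves also held less of most of these markers.

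The fall of ccl38.6 was seen in each of the 3 largest lymphocyte-like clusters, from 1629.5 to 421 CPM, from 912 to 119 CPM and from 939 to 215 CPM. In uninjured mCherry+ libraries its level was 387 ± 81.0 CPM, nearer to 0 dpa than to mock. In atlas lymphocyte-like cells, also uninjured, it was the leading ligand gene at 1426 CPM pooled over libraries, near the mock mean of 1397 CPM. Other lymphocyte-like ligands were high at later times, when few cells remained. At 2 dpa, with 178 cells, ccl36.1 stood at 889, 981 and 729 CPM and ccl34b.4 at 489.5, 286 and 1083 CPM, against 421 ± 91.2 and 178.5 ± 61.4 CPM at mock, and these were not tested. Of 22 tested migration genes and 13 inflammatory genes, 0 passed at 0 dpa in either direction.

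**Figure D4:**
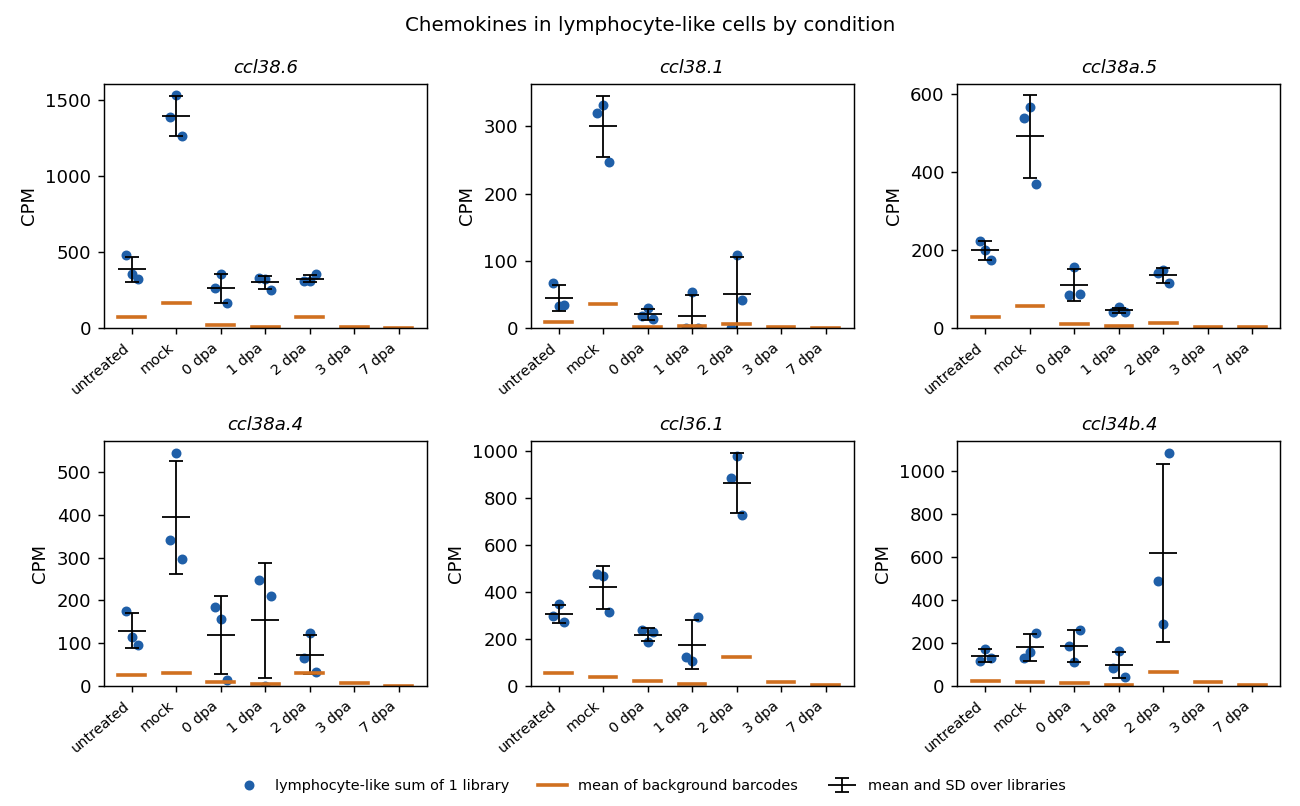
Level in CPM (y axis) of 6 ligands in lymphocyte-like cells of uninjured (untreated), mock and 0 to 7 dpa libraries (x axis), drawn as dots for libraries, black mean and SD and an orange line for mean background. No library of 3 or 7 dpa held 10 such cells, and the ccl38.6 panel stands at 1397 ± 133 CPM at mock and 264 ± 96.0 CPM at 0 dpa.

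In neutrophil-like cells the receptors were the main members, and no member passed. From mock to 0 dpa 0 of 10 tested members passed with edgeR, 1 had an unadjusted p below 0.05, and DESeq2 gave 0, against 1.01% of all genes, 0.526% higher and 0.485% lower. The median of all genes was 0.54, and 1.16 with TMM over all genes, that of members 0.76 as fitted and -1.28 as bounded median. From 0 to 1 dpa 0 of 10 passed, 2 had an unadjusted p below 0.05, and DESeq2 gave 0, against 6.23% of all genes, 3.4% higher and 2.83% lower. The level of cxcr1 was 1058, 1036 and 294 CPM at mock, on 27 cells in all, 392.5, 370.5 and 346 CPM at 0 dpa and 609, 650.1 and 609 CPM at 1 dpa. The mock libraries lay on both sides of the 0 dpa values, and at 1 dpa all 3 libraries lay above those of 0 dpa. The genes cxcr1 and cxcr2 are outside the naming rule and were chosen after their values were seen. The level of cxcr4b was 692 ± 292 CPM at mock, 536 ± 85.4 in 0 dpa, 722 ± 38.4 in 1 dpa and 1128 ± 134 in 2 dpa libraries. Of the downstream genes tested from 0 to 1 dpa, csf3b rose by 3.09, rgs2, a regulator of G protein signalling, by 1.31 and nfkbiaa by 0.84, which were 1 of 14 migration and 2 of 8 inflammatory genes.

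**Figure D5:**
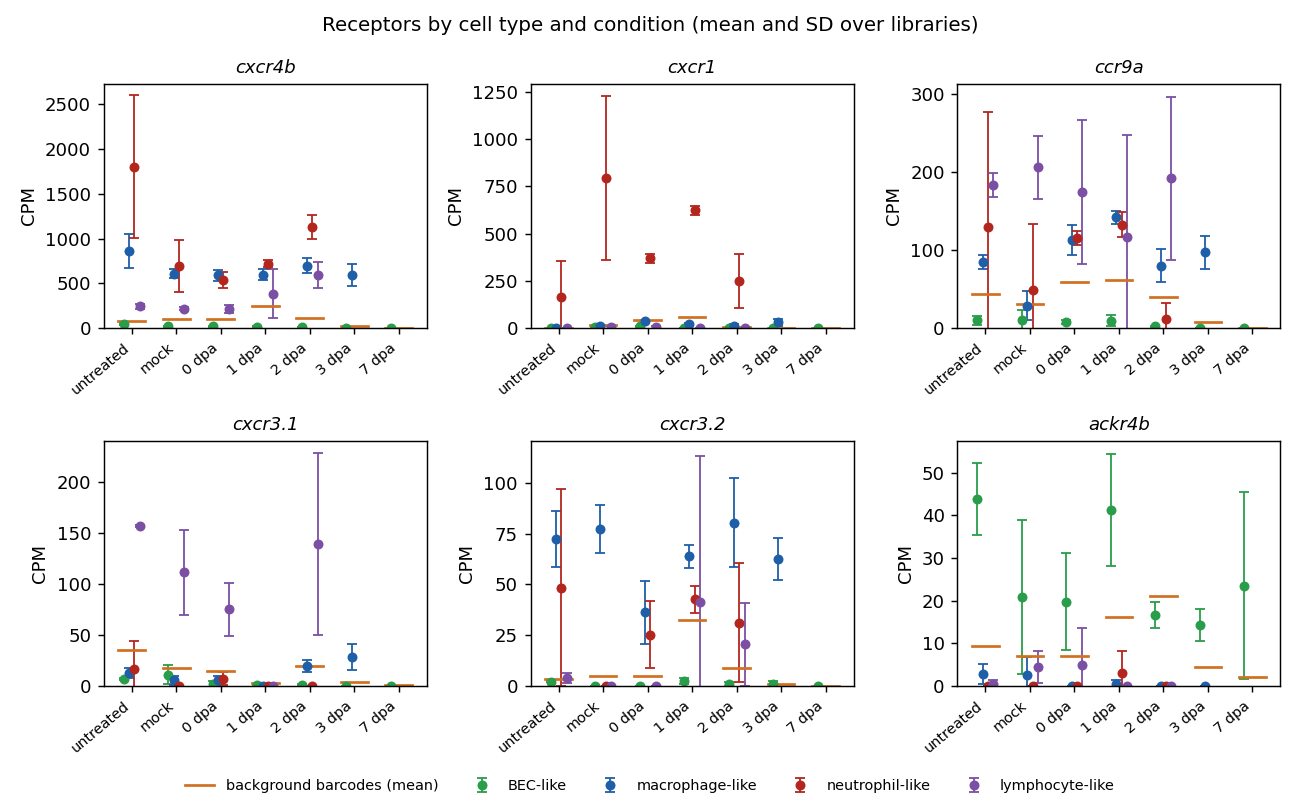
Level in CPM (y axis) of 6 receptor genes by group (x axis) in BEC-like, macrophage-like, neutrophil-like and lymphocyte-like cells, as mean and SD over libraries, with lines for mean background. In macrophage-like cells cxcr4b stays between 590.4 and 860 CPM from uninjured to 3 dpa, and cxcr1 is higher in neutrophil-like cells than in the other 3 types, at 623 ± 23.8 CPM in 1 dpa libraries.

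Stellate-like cells were few, and no test was made between them and other types. In them cxcl18b was at 1383 ± 1348 CPM in uninjured libraries, 1402 ± 548 CPM at 2 dpa and 679 ± 408 CPM in the atlas (n = 5 libraries with at least 10 such cells). Of the 1532 cxcl18b UMIs of the mCherry+ libraries, 1071 lay in hepatocyte-like and 339 in stellate-like cells. The zebrafish Cxcl8-type gene cxcl8b.3 was at 457, 300.2 and 581 CPM at 2 dpa and had 94 of its 104 mCherry+ UMIs in stellate-like cells. In the atlas, where they numbered 116, stellate-like cells also held ccl25b, whose mammalian counterpart CCL25 binds CCR9, as 31.1% of their ligand UMIs, and cxcl12a, which encodes a ligand of Cxcr4b. The genes cxcl8b.3 and cxcl12a, with 104 and 48 UMIs in the mCherry+ libraries, lie outside the rule by which genes were named and were chosen after their values were seen. Endothelial-like cells of the atlas had ackr3b as 81.1% of their receptor UMIs.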

How the data were processed

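The deposited files are raw UMI counts per gene and barcode, 1 table of 5000 barcodes per library, which the authors made with STAR 2.5.3 and Drop-Seq tools on GRCz11 (FastQC 0.11.2 is also named). Barcodes with a total above their library's mean were taken as cells, 0 columns of per-sample values were left out, and the third 7 dpa library is labelled replicate 31. For clustering and naming only, the 95th percentile of background barcodes was subtracted from each cell. Cells were clustered with scanpy 1.11.5 and leidenalg 0.10.2 (2000 variable genes without the members, 30 principal components, 15 neighbours, resolution 2). A cluster of at least 30 cells was named where at least 3 markers of a list were found in at least 5% of its cells, its score reaching 1.8 and exceeding that of the next list 1.5-fold. Several naming rules were tried and judged by the leading genes of the clusters, and likely doublets were kept and removed in an alternative.

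Raw UMIs of at least 10 cells (5 for neutrophil-like) were summed per library and type and tested with edgeR 4.0.16 (quasi-likelihood, R 4.3.3) in 4 fits and 13 comparisons. Genes needed 10 UMIs in a state, in at least 2 of its sums, at 5 CPM or more. TMM factors came from genes at 50 CPM or more in every state with replicate sums, and p-values were adjusted over all genes of a fit by Benjamini-Hochberg. DESeq2 1.42.0 was an alternative, and the fits were tested on simulated data. Genes were named from the members that passed in any comparison, the 20 with most UMIs and the leading ligand and receptor gene of each type. Pathway genes were named from the 3 with the largest change per comparison and list. Not every gene that met this rule is named. Members, lists, markers and tests were chosen with earlier results of these data known. Sequences were not used here.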

Additional observations from a re-analysis of the deposited data

Results flagged for a closer look

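In 3 of 14 groups of atlas libraries tested, 1 library stood far from the others. The rule's rate of about 1 in 20 groups by chance assumes normally spread values. Counts here are sparse, so that rate cannot be set beside the 3 of 14. In endothelial-like cells ccl39.2 was at 1002.19 CPM in 1 library and at 0 to 215.88 CPM in the other 5. In neuron-like cells ackr3b was at 21.14 CPM in 1 of 5 libraries and at 0 in the others, on 4 UMIs in all. In stellate-like cells ackr4b was at 277.85 CPM in 1 of 5 libraries and at 77.25 to 122.81 CPM in the others.

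In 3 cases a ligand had calls without overlap of libraries in both BEC-like and macrophage-like cells, and these went opposite ways. The cells came from the same libraries, and the difference itself was not tested. Opposite calls of ccl35.2 and ccl20a.3 fell outside this rule, since libraries overlapped in at least 1 type. From mock to 0 dpa ccl35.1 changed by 0.53 in BEC-like and -1.36 in macrophage-like cells on the log2 scale. The former lost its call with free RNA subtracted (0.40, adjusted p = 0.173, edgeR) and without likely doublets (0.32, adjusted p = 0.112, edgeR), and the latter was -0.22 (adjusted p = 0.584, edgeR) within the cd74a cluster. From 0 to 1 dpa ccl35.1 changed by -3.50 in BEC-like and 0.61 in macrophage-like cells, and the latter was -0.06 without cells holding a neutrophil marker UMI. From 0 to 1 dpa cxcl8a changed by -2.94 in BEC-like and 1.59 in macrophage-like cells. The former lost its call with DESeq2 (adjusted p = 0.0521), and the latter without neutrophil marker cells (0.73, adjusted p = 0.081, edgeR) and within the cd74a cluster (0.53, adjusted p = 0.474, edgeR).

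The atlas libraries, which enter no comparison, held ackr3b at 126.95 CPM in endothelial-like cells and, in stellate-like cells, cxcl12a at 1149.74 CPM and ccl25b at 1915.76 CPM, as means over libraries.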

How the results depend on the processing

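Of the changes of called members under the alternatives, 1899 kept direction and call, 362 kept direction only and 22 turned. Of the counts of called members, 196 stayed within 1.5 times and 28 did not. Of the mean levels of the 20 members with most UMIs, 379 moved by no more than 1 SD and 93 by more, 50 of them when free RNA was subtracted. The counts that moved were the following. With TMM over all genes, 6 for hepatocyte-like 7 against 3 dpa. With DESeq2, 5 for BEC-like 1 against 0 dpa, 7 for hepatocyte-like 7 against 3 dpa and 11 for macrophage-like 0 dpa against mock and 1 against 0 dpa. With cells of at least 500 UMIs, 7 for BEC-like 2 against 1 dpa and 9 for hepatocyte-like 3 dpa. At clustering resolution 1, where the cluster of most BEC-like cells of 1 and 2 dpa had no name, 5, 2, 10 and 1 for BEC-like 1 against 0, 2 against 1, 2 dpa against mock and 3 against 2 dpa, 8 for hepatocyte-like 3 dpa and 8 for lymphocyte-like cells. Without likely doublets, 10 for BEC-like 0 dpa against mock and 1 for neutrophil-like 1 against 0 dpa. By library size or with at least 10 cells, 1 for neutrophil-like 0 dpa against mock. Among alternatives chosen after seeing the data, 7 for BEC-like 2 against 1 dpa without macrophage marker cells, 9 for both macrophage-like 0 dpa against mock and 1 against 0 dpa without neutrophil marker cells, 2, 5 and 8 in the 3 macrophage-like comparisons within the cd74a cluster and 10 for 1 against 0 dpa within the grn1 cluster. The cause was not tested.

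Leaving out 1 library at a time gave 5 to 6, 6 to 9, 7 to 13, 14 to 18 and 4 to 5 in the BEC-like comparisons in the order of the report, 14 to 15 and 8 to 11 in hepatocyte-like, 12 to 16, 10 to 17 and 10 to 14 in macrophage-like, 4 to 6 in lymphocyte-like and 0 to 1 and 0 to 0 in neutrophil-like cells. The 7 came without 1 dpa replicate 1, the lowest 10 of macrophage-like 1 against 0 dpa without 0 dpa replicate 2, and the neutrophil-like 1 without 0 dpa replicate 1 or mock replicate 2.

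Directions turned as follows, in log2 change. In BEC-like cells, ccl20a.3 for 1 against 0 dpa ranged from -5.10 to 3.23 over fits without 1 library, the latter without 0 dpa replicate 3, ccl20b for 2 against 1 dpa was 0.07 with at least 500 UMIs and 4.83 at resolution 1, ccr9a there was 0.38 at resolution 1, and cxcl20 for 2 dpa against mock was 0.02 with DESeq2. In hepatocyte-like cells, ccl33.3 at 3 dpa was 1.25 at resolution 1, cxcr3.1 was 0.00 with at least 500 UMIs, and cxcl20 for 7 against 3 dpa was 0.14 with TMM. In macrophage-like cells for 0 dpa against mock, ccl34a.4 was 0.02 with DESeq2, ccl38a.4 ranged from -3.06 to 0.38 over such fits, the latter without mock replicate 1, and within the cd74a cluster ccl34a.4 was 0.11, ccl35.2 0.39 and ccl38.1 0.11. For 1 against 0 dpa, ccl35.1 was -0.06 and ccl35.2 -0.26 without neutrophil marker cells, ccl35.2 -0.18 without doublets, and within the cd74a cluster ccl35.1 was -0.32, ccl35.2 -0.60, ccr12b.1 0.21 and cxcl20 -0.38. For 2 against 1 dpa within that cluster ccr9a was 1.96 and cxcl8b.1 5.59, both on 73 cells of it at 1 dpa.

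Correlations of same-numbered libraries ran from -0.092 to 0.248, and the highest were 0.248 and 0.202 in macrophage-like 1 against 0 dpa. Differently numbered libraries were not set beside them, so these values do not show whether replicate numbers pair the libraries. With the replicate number as a block the counts were 7, 7, 14, 15 and 5 in BEC-like, 13 and 8 in hepatocyte-like, 16, 18 and 12 in macrophage-like, 4 in lymphocyte-like and 0 and 0 in neutrophil-like comparisons. Depth limits mock most, with library medians of 435 to 486 UMIs per cell.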
